A study of Mus musculus with 4 samples.

Results

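The genes described here are the 8 members of the Myc, Max and Mxd network that were taken by symbol from the 32285 genes of the deposited matrices: *Myc*, *Mycn*, *Max*, *Mxd1*, *Mxd3*, *Mxd4*, *Mxi1* and *Mnt*. Bone marrow cells of the 5TMM model, in which C57BL/KawRij mice aged 6 weeks were given 5TGM1-luc mouse myeloma cells intravenously, were profiled by droplet single-cell RNA sequencing after lysis of the erythrocytes. A pair of mice received vehicle and a pair received 10 mg/kg of purinostat mesylate (PM), an inhibitor of class I and IIb histone deacetylases, 24 h before collection, and each mouse gave 1 library. All 4 mice carried the implanted myeloma line, so each comparison sets PM against vehicle within tumor-bearing marrow. With 2 mice in each group, an exact permutation test over mice of a single value cannot go below p = 0.33, so the tests come from edgeR fits across all genes.

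Myc and its paralog Mycn are transcription factors that bind the E-box, the letters CACGTG, as a dimer with Max, and drive genes of ribosome production, nucleotide and polyamine synthesis and cell growth. The Mxd proteins (Mxd1, Mxd3, Mxd4 and Mxi1) and Mnt compete for Max and for the same sites, and repress them by bringing in Sin3 and histone deacetylases. In blood formation Myc is known to be high in progenitors and in dividing precursors, while Mxd1 is known to be induced as myeloid cells mature, and deregulated Myc is a common feature of myeloma.

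In the GRCm38 assembly, GENCODE M21 places *Myc* at chr15:61985391-61990374, *Mnt* at chr11:74830920-74845725 and *Mxi1* at chr19:53310518-53375810, all on the plus strand. On the minus strand lie *Mycn* at chr12:12936093-12941914, *Max* at chr12:76937269-76962201, *Mxd1* at chr6:86647042-86669161, *Mxd3* at chr13:55325168-55329823 and *Mxd4* at chr5:34173883-34187720.

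The E-box was also looked for in the promoters of the network's own genes, because its members bind it. RefSeq promoter windows of GRCm38.p6, from 250 bases before to 50 bases after the transcription start, were matched for 7 of the 8 members in 9 windows. No window was matched for *Myc*, so its promoter was not searched. CACGTG, which reads the same on both strands, was found in the windows of *Max*, *Mxd4* and *Mnt*, 3 of 9 windows, against 7.15% of the 32851 RefSeq windows of the same length. The first 256 bases of these 3 windows are given with the E-box in capitals, for *Max* from chr12:76962243-76962498 (minus strand), for *Mxd4* from chr5:34187705-34187960 (minus strand) and for *Mnt* from chr11:74830674-74830929 (plus strand). Whether any protein occupied these sites was not measured.
Max: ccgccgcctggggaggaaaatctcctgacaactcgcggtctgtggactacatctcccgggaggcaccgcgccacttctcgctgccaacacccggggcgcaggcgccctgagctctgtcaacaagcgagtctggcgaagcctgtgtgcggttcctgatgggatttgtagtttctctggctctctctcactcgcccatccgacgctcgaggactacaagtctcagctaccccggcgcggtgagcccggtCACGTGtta
Mxd4: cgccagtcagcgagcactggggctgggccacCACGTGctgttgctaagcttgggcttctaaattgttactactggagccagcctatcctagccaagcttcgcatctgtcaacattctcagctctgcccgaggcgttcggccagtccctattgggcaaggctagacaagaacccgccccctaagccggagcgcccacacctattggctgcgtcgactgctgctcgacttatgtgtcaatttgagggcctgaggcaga
Mnt: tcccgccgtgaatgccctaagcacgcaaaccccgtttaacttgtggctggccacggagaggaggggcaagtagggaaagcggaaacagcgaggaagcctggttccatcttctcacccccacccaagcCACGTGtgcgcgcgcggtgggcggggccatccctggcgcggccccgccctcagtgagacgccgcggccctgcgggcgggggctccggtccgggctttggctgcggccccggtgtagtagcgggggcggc
The E-box began 3 bases before the start of *Max*, 219 bases before that of *Mxd4* and 123 bases before that of *Mnt*.

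After filtering, 39743 cells remained, with 7826 to 13387 cells and a median of 4717 to 6067 UMIs per cell in each mouse, and 39051 of them fell into a cell type or a numbered cluster. Cells were split into 11493 cycling and 27558 non-cycling cells by 46 cell cycle genes that include no member of the network, and 18.8% of the cells lay near the dividing line, between 5 and 20 cell cycle UMIs per 10000. UMIs were summed per mouse for each type and state, and the 31 sums with at least 10 cells in every mouse were compared. Levels are given as CPM, the UMIs of a gene per 1000000 UMIs of that sum, and are compared only within a gene. Of the distinct barcodes, 165 occurred in 2 libraries and 1 in 3 libraries. Neutrophil RNA was present in every sum: the 10 mature neutrophil markers together reached between 96.0 and 47113 CPM, and at most 1 of the 10 had no UMI in any mouse of a sum.

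*Myc* was highest in the hematopoietic stem and progenitor cells (HSPC), with 265.1 and 259.4 CPM in the vehicle mice, above the megakaryocyte class (184.1 and 141.5 CPM) and the clonal plasma cells (172.3 and 134.3 CPM), which overlapped each other. The non-cycling natural killer (NK), cycling erythroid and cycling granulocyte-monocyte progenitor (GMP) cells followed between 69.7 and 104.6 CPM and did not differ beyond their spread. Along the granulocyte series *Myc* went down from GMP through cluster 13 (9.8 and 7.0 CPM), an unnamed cluster led by *Fcnb* and *Cdc25a*, to at most 1.4 CPM in the vehicle immature neutrophils. The HSPC, megakaryocyte class, clonal plasma cells, GMP and cluster 13 are given by their cycling cells, since their non-cycling cells numbered under 10 in at least 1 mouse.

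*Mxd1* had the opposite arrangement. The GMP held 34.5 and 33.5 CPM in the vehicle mice and the mature neutrophils 1982 and 1729 CPM in their non-cycling cells, with cluster 3, an unnamed cluster led by *Gpr27*, *Mcam*, *Mmp8* and *Retnlg* that lay between the immature and mature neutrophil lists, at 1728 and 1433 CPM. *Max* was also highest in the non-cycling mature neutrophils (451.8 and 388.5 CPM) and in cluster 3 (415.2 and 393.0 CPM), which overlapped. *Mxi1* was highest in the non-cycling erythroid cells, at 187.8 and 180.3 CPM, which overlapped the CAR cells (190.4 and 166.4 CPM), and was 71.9 and 74.3 CPM in GMP. The CAR cells in turn overlapped cluster 3 (171.1 and 166.0 CPM). These erythroid sums were small, at 74545 and 44359 UMIs. Immature neutrophil markers made up 44939 and 9491 CPM of them, and 62259 and 38036 CPM in the CAR cells. Their part in the *Mxi1* levels was not tested. The series from cycling GMP to non-cycling neutrophils spans both states. In 6 of the 10 types with both states *Mxd1* was higher in cycling than in non-cycling cells in 0 of 4 mice. In the immature neutrophils its mean over the 4 mice was 214.9 CPM in cycling and 777.2 CPM in non-cycling cells.

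*Mycn* was found in few classes. It had 58.5 and 47.8 CPM in the vehicle megakaryocyte class and 12.9 and 13.1 CPM in HSPC, and no UMI of it was found in any mouse in 16 of the 31 sums. These zeros limit it only by counting error, to at most 67.6 CPM (3 UMIs) in the shallowest library among these sums. *Mxd3*, the family member known from S-phase cells, was higher in cycling than in non-cycling cells of all 4 mice in 8 of the 10 types with both states. In the 15 non-cycling sums it reached at most 4.51 CPM. The exceptions were the mature neutrophils (mean 1.01 CPM in cycling against 0.82 CPM in non-cycling cells) and the B cells (1.44 against 1.93 CPM). In each of them 1 of 4 mice was higher, so the name cycling rests there on the cell cycle genes and not on *Mxd3*. The highest vehicle levels of *Mxd3* were in the cycling plasmacytoid dendritic cells (pDC), at 106.4 and 76.0 CPM, and in the cycling B precursors, at 72.7 and 59.6 CPM. *Mxd4* was highest in cluster 10, a B-lineage cluster led by *Fam129c*, *Vpreb3* and *Rag1*, with 167.4 and 249.1 CPM in its non-cycling cells, and overlapped there with the NK and T cells. *Mnt* had vehicle means of 44.1 to 50.7 CPM in its 6 highest classes, which overlapped their neighbours. It was lower in the non-clonal plasma cells, at 7.7 and 8.4 CPM.

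**Figure D1:**
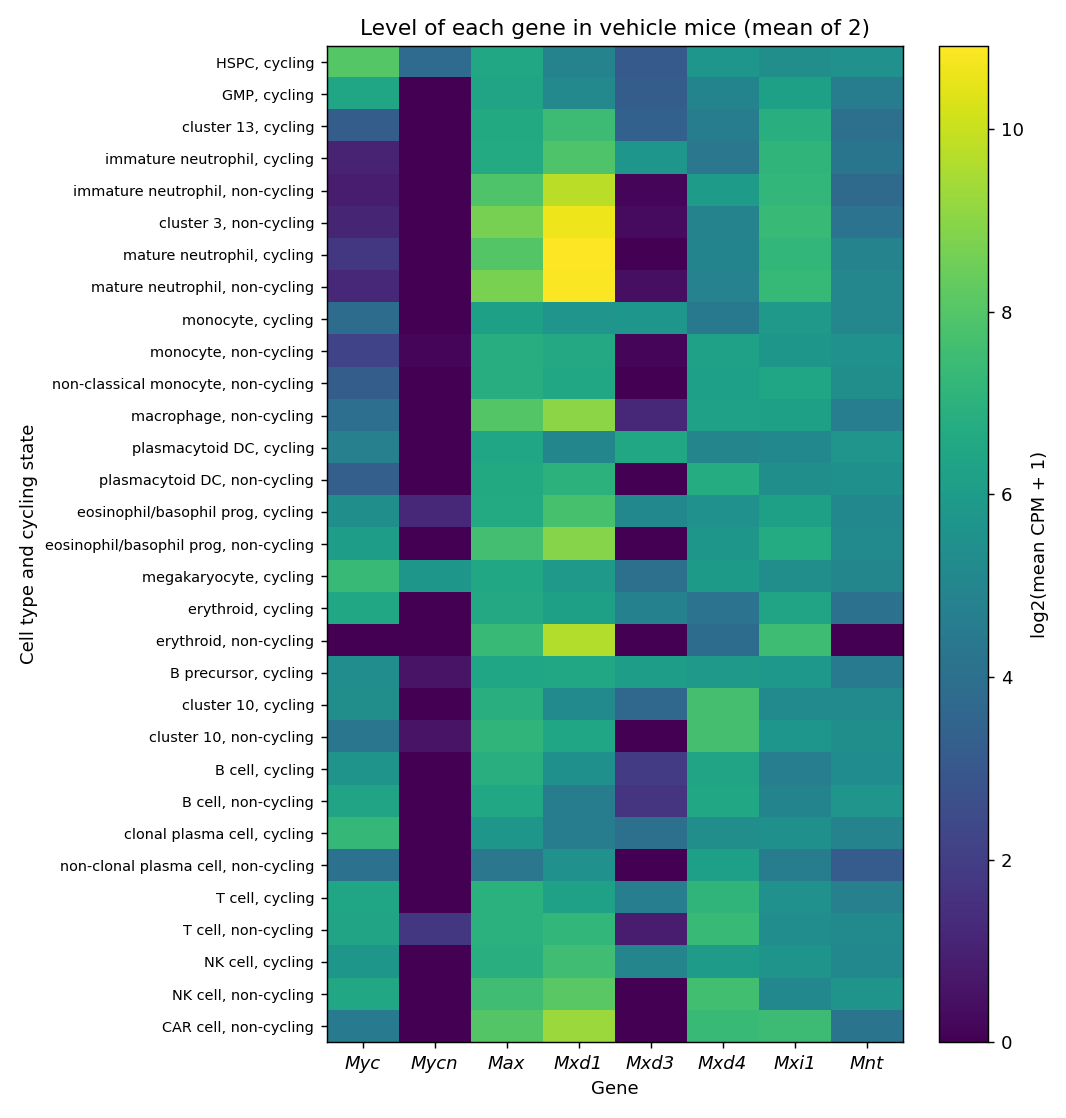
Level of each of the 8 genes (columns) in each of the 31 types and states (rows) as log2 of the mean CPM of the 2 vehicle mice plus 1, shown by color. *Mxd1* brightens from GMP to the mature neutrophils, where it has the brightest squares of the map and *Myc* is dark, and *Mxd3* is dark in every non-cycling row.

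The genes whose vehicle levels followed a member most closely over the 31 sums, out of 11251 genes, are a description, since the sums share libraries and cell types. For *Myc* they were *Tsr1* (Pearson's r = 0.91), *Denr* (0.91) and *Prmt7* (0.91), of which Tsr1 acts in ribosome assembly. For *Mxd1* they were the neutrophil genes *Mmp9* (0.97), *Cxcr2* (0.97) and *C5ar1* (0.94), and for *Mxd3* the mitotic genes *Prr11* (0.97), *Shcbp1* (0.96) and *Ncaph* (0.95). Among the genes that followed *Mycn* were *Gucy1a1* (0.93) and *Mecom* (0.91). For *Max* they were *Rlf* (0.90), *Asb7* (0.89) and *Midn* (0.87), for *Mxd4* *Clec2d* (0.87), *Fbxo32* (0.86) and *Lars2* (0.82), for *Mxi1* *Rffl* (0.88), *Cpd* (0.87) and *C5ar2* (0.86), and for *Mnt* *Ing3* (0.93), *Plekhj1* (0.93) and *2410006H16Rik* (0.93).

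PM was compared with vehicle to see which members of the network changed 24 h after dosing in each type and state. Few were called. Of 175 gene and class pairs that passed the filter on low counts, 1 was called higher and 1 lower (edgeR, adjusted p under 0.05 and a log2 fold change beyond 0.5). Over all genes and classes 1.17% of tests were called higher and 0.611% lower. With 2 mice in each group, a pair without a call may still have changed. At an unadjusted p under 0.05 there were 28 pairs, 15 with a positive and 13 with a negative log2 fold change, and DESeq2 called 0 higher and 1 lower, *Mxd1* in cluster 3. Counts at an unadjusted p, here and below, are given without the share of all genes and cannot be judged against it. Both PM mice lay above both vehicle mice in 39 of the 175 pairs and below them in 31, against 22.4% and 18.4% of all tests, so the members did not separate the groups more often than genes at large.

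**Figure D2:**
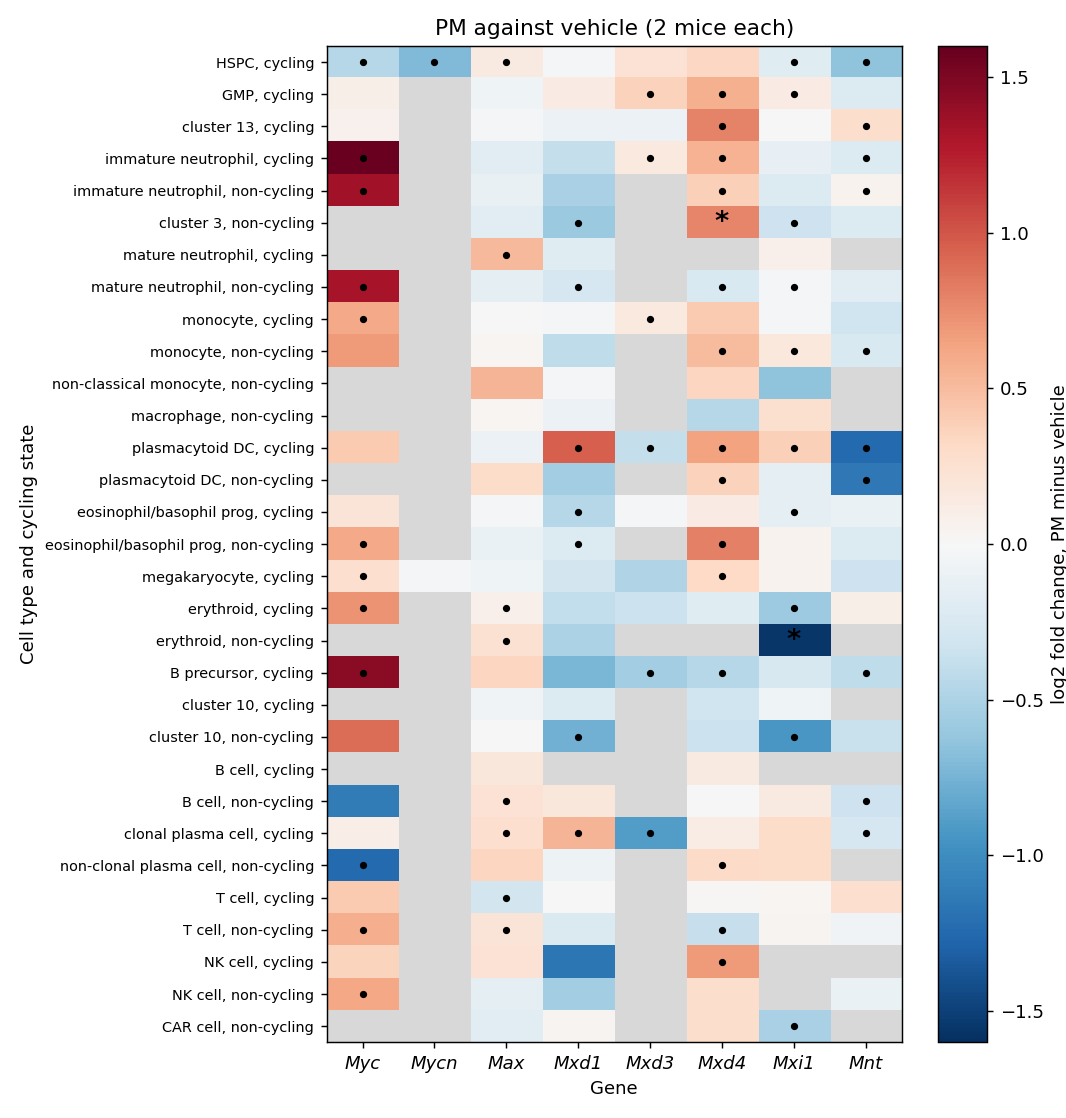
Log2 fold change of PM against vehicle for the 8 genes (columns) in the 31 types and states (rows), 2 mice in each group, with gray where the gene did not pass the filter. Stars mark the 2 called pairs and dots the uncalled pairs whose groups did not overlap. Both PM mice were above both vehicle mice in 12 of 29 squares of *Mxd4* and 10 of 22 of *Myc*, and below in 3 and 2. For *Mxi1* they were above in 3 and below in 8 of 28, and for *Mnt* above in 2 and below in 8 of 22. Over all genes and classes 22.4% of tests had both PM mice above and 18.4% below.

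*Mxd4* had the call for a higher level, in 1 of 29 classes. In the non-cycling cells of cluster 3 it had 27.9 and 28.2 CPM in the vehicle mice and 46.7 and 48.2 CPM in the PM mice. Both PM mice were above both vehicle mice, and the log2 fold change was 0.78 ± 0.17 (SE, edgeR adjusted p = 0.0282), in a class where 3.42% of genes were called higher and 25.0% had both PM mice above. The edgeR adjusted p was 0.0708 without vehicle 1, 0.0579 without PM 1 and 0.0504 without the cells called doublets, and DESeq2 gave 0.287, within a range of 0.0067 to 0.287 over the 13 alternatives, in all of which the fold change was positive (0.71 to 0.80).

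The earlier stages of the granulocyte series had higher *Mxd4* in both PM mice without a call. In GMP the vehicle mice had 25.2 and 33.3 CPM and the PM mice 46.8 and 40.9 CPM (log2 fold change 0.57 ± 0.17, edgeR adjusted p = 0.201; 26.6% of genes had both PM mice above). In cluster 13 the values were 19.0 and 28.5 against 42.0 and 39.6 CPM (0.79 ± 0.21, edgeR adjusted p = 0.0851; 22.4% of genes above). The groups did not overlap in these progenitor stages, nor in the immature neutrophils. Cycling immature neutrophils had 16.4 and 21.4 against 29.5 and 28.0 CPM (0.55 ± 0.17, edgeR adjusted p = 0.113; 30.1% of genes above), and non-cycling ones 60.0 and 68.7 against 88.1 and 96.0 CPM (0.38 ± 0.12, edgeR adjusted p = 0.0643; 39.8% of genes above).

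At the end of the series the order turned. In non-cycling mature neutrophils the vehicle mice had 24.8 and 31.2 CPM of *Mxd4* and the PM mice 24.0 and 21.4 CPM (−0.24 ± 0.17, edgeR adjusted p = 0.43; 31.6% of genes had both PM mice below). The class joins clusters 0, 4, 12 and 14, which the mice filled unequally: in cluster 4 there were 1206 and 546 vehicle cells against 180 and 288 PM cells, and in cluster 12 there were 189 and 68 against 514 and 315. Within cluster 0, the largest, *Mxd4* was 22.6 and 33.9 against 25.2 and 18.3 CPM over both states, and the groups overlapped. They also overlapped in clusters 12 and 14. In cluster 4 *Mxd4* was lower in both PM mice, at 28.5 and 30.9 against 15.6 and 23.3 CPM. Over all classes *Mxd4* had a positive log2 fold change in 22 of 29, and in non-cycling T cells it was lower in both PM mice (180.4 and 155.4 against 125.3 and 127.3 CPM; −0.37 ± 0.17, edgeR adjusted p = 0.397; 22.7% of genes below).

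*Mxd1* was in the other direction in the same cells and was not called. In non-cycling cluster 3 the vehicle mice had 1728 and 1433 CPM and the PM mice 921.0 and 1153 CPM. Both PM mice were below both vehicle mice, as were 24.8% of genes there, and the log2 fold change was −0.60 ± 0.16 (edgeR adjusted p = 0.0525). DESeq2 gave an adjusted p of 0.023 and edgeR with RLE size factors 0.0482. In 7 of the 13 alternatives *Mxd1* stayed uncalled there, and its log2 fold change ran from −0.76 to −0.45 over all of them. In the non-cycling immature neutrophils, *Mxd1* was 1020 and 735.5 against 567.0 and 785.8 CPM, so that the groups overlapped (−0.52 ± 0.18, edgeR adjusted p = 0.105). The immature neutrophils join clusters 1, 2 and 6. Over both states *Mxd1* was lower in both PM mice in cluster 2, at 1297 and 1060 against 687 and 928 CPM. The groups overlapped in cluster 1 (773 and 561 against 441 and 583 CPM) and in cluster 6.

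In non-cycling mature neutrophils, whose vehicle levels overlapped the highest ones, those of cycling mature neutrophils, *Mxd1* was 1982 and 1729 against 1283 and 1700 CPM (−0.27 ± 0.21, edgeR adjusted p = 0.452). The same order was seen inside cluster 0 (2188 and 1926 against 1275 and 1755 CPM) and cluster 4 (1840 and 1551 against 1241 and 1424 CPM), and the groups overlapped in cluster 12 (2117 and 1667 against 1260 and 1690 CPM) and in cluster 14. PM 1 was the lowest of the 4 mice in each of these 4 clusters.

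**Figure D3:**
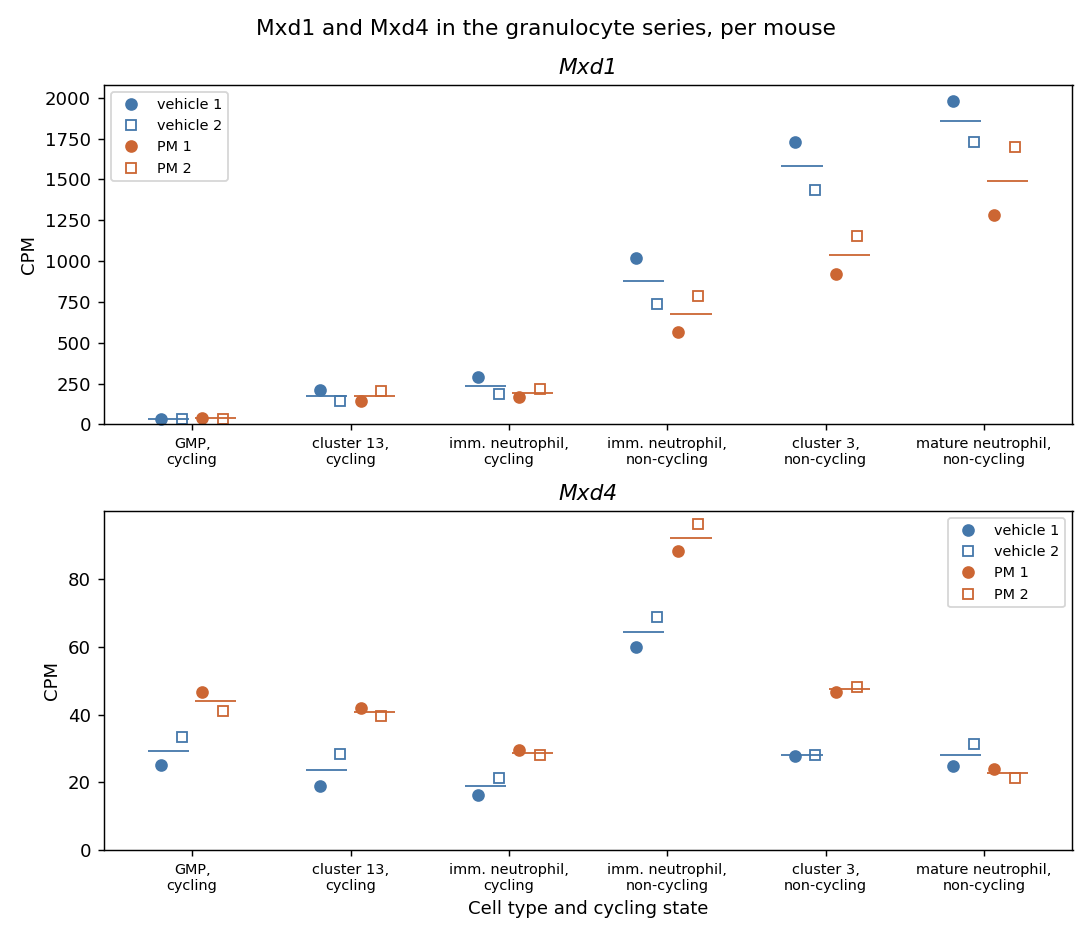
CPM of *Mxd1* (top) and *Mxd4* (bottom) in each mouse along the granulocyte series, from GMP to mature neutrophils; points are mice and short lines are the means of the 2 mice of a group. *Mxd4* is higher in both PM mice up to cluster 3 and not in mature neutrophils, while *Mxd1* in cluster 3 and mature neutrophils is lower in both.

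In some classes outside the granulocytes *Mxd1* differed widely between the vehicle mice. In others, such as the non-cycling eosinophil/basophil progenitors (489.6 and 480.4 CPM), it was nearly equal. It was 192.6 CPM in non-cycling pDC in vehicle 1 and 64.1 CPM in vehicle 2, in non-cycling monocytes 136.8 and 52.1 CPM, and in cycling B precursors 151.4 and 33.3 CPM. The summed mature neutrophil markers moved the same way between these mice, from 2203 to 1308 CPM, 2609 to 1969 CPM and 3003 to 526 CPM, but not in every class. In the CAR cells (*Mxd1* at 802.6 and 447.2 CPM) they went from 7645 to 10245 CPM and in the non-cycling erythroid cells (965.9 and 653.8 CPM) from 4695 to 15127 CPM. Their part in the *Mxd1* values was not tested.

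The difference in the response between cycling and non-cycling cells was tested in the 10 types with both states. Of 65 member tests 1 was called, against 0.576% of all genes, and 2 had an unadjusted p under 0.05. The call was *Mxd1* in pDC, a type in which 0.214% of genes were called. In cycling pDC it was 38.3 and 23.4 CPM in the vehicle mice and 58.4 and 57.4 CPM in the PM mice, so the groups did not overlap (17.3% of genes had both PM mice above). In non-cycling pDC it was 192.6 and 64.1 against 94.4 and 71.9 CPM. The log2 fold change of cycling cells exceeded that of non-cycling cells by 1.44 ± 0.31 (edgeR adjusted p = 0.0292). The cycling pDC of the PM mice also held more mature neutrophil marker UMIs, 1557 and 1431 against 364 and 238 CPM. For the immature neutrophil markers there the groups overlapped, with 7692 and 8625 CPM in the PM against 10648 and 7497 CPM in the vehicle mice. Without cells called doublets, which made up 20.6% of the pDC cluster, the difference was 0.79 ± 0.56 (edgeR adjusted p = 0.954), and it also lost its call without vehicle 1 (0.90, 0.828) and without PM 2 (1.31, 0.0555) and when the cycling cells were taken at 5 or 20 cell cycle UMIs per 10000 (1.17, 0.0507, and 1.14, 0.631), with adjusted p from 0.000682 to 0.954 over 8 alternatives.

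*Mnt* had its lowest fold changes in the pDC and was not called in any class by edgeR or DESeq2, with 3 of 22 tests at an unadjusted p under 0.05. Cycling pDC had 42.1 and 58.5 CPM in the vehicle mice and 22.8 and 18.2 CPM in the PM mice (−1.24 ± 0.30, edgeR adjusted p = 0.127; 18.2% of genes had both PM mice below). Non-cycling pDC had 40.5 and 47.6 against 16.7 and 25.2 CPM (−1.15 ± 0.31, edgeR adjusted p = 0.134), where 18% of genes had both PM mice below. The groups did not overlap in either state. When the states were summed together *Mnt* was called lower in pDC, at −1.20 (edgeR adjusted p = 0.0418). In each state it stayed uncalled in 10 of 13 alternatives. Its log2 fold change ran from −1.50 to −0.96 in cycling and from −1.40 to −0.83 in non-cycling cells. In HSPC *Mnt* was also lower in both PM mice, at 46.7 and 44.4 against 24.5 and 33.9 CPM (−0.64 ± 0.21, edgeR adjusted p = 0.438; 16.3% of genes below).

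*Mxi1* fell in the non-cycling erythroid cells, from 187.8 and 180.3 CPM in the vehicle mice to 83.0 and 73.7 CPM in the PM mice (−1.56 ± 0.43, edgeR adjusted p = 0.0245). That class is thin and changed broadly: the vehicle mice gave 16 and 14 cells, 19.0% of its 1500 tested genes were called lower, and the immature neutrophil markers made up 44939 and 9491 CPM in the vehicle and 66578 and 65758 CPM in the PM mice. For the mature neutrophil markers the groups overlapped, at 4695 and 15127 against 15764 and 11370 CPM. The vehicle cells all came from cluster 30, while the PM sums also held 2 and 6 cells of cluster 15, the other erythroid cluster. Over all cells of cluster 30, both states together, *Mxi1* was 207.7 and 115.4 against 93.3 and 105.2 CPM. The call was lost without vehicle 1 (adjusted p = 0.0908), without PM 1 (0.0956) and without PM 2 (0.212), under DESeq2 (0.494), with no filter on low counts (0.297) and with the states together (0.214), which is 6 of 10 alternatives. All 10 ran over an adjusted p of 0.0166 to 0.494 and a log2 fold change of −1.59 to −0.62. In the cycling erythroid cells, with 131 to 334 cells in each mouse, *Mxi1* was 88.8 and 76.7 against 50.6 and 64.3 CPM, lower in both PM mice as in 16.1% of genes, and was not called (−0.59 ± 0.18, edgeR adjusted p = 0.225). In the non-cycling cells of cluster 10 it was 34.9 and 68.8 against 30.8 and 33.7 CPM (−0.93 ± 0.32, edgeR adjusted p = 0.0982), and *Mxd1* 90.7 and 79.7 against 29.4 and 69.4 CPM (−0.77 ± 0.31, edgeR adjusted p = 0.181), with both PM mice lower for both genes, as for 23.7% of genes there. Without doublets the log2 fold change of *Mxd1* there was 0.05. That of *Mxi1* ran from −1.08 to −0.05 over its 13 alternatives.

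*Myc* was called in 0 of 22 classes by edgeR and by DESeq2, with 9 at an unadjusted p under 0.05 and a positive log2 fold change in 19. In HSPC, where it was highest, it was 265.1 and 259.4 CPM in the vehicle mice and 182.6 and 200.5 CPM in the PM mice. Both PM mice were lower, as in 16.3% of genes there, but the log2 fold change of −0.45 ± 0.13 did not pass the test (edgeR adjusted p = 0.343). *Mycn* in HSPC was 12.9 and 13.1 against 6.7 and 9.2 CPM (−0.71 ± 0.37, edgeR adjusted p = 0.889), while in the megakaryocyte class, at 58.5 and 47.8 against 44.3 and 61.9 CPM, its groups overlapped.

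In cycling erythroid cells *Myc* was in the other direction, with 88.3 and 92.7 CPM in the vehicle mice and 167.0 and 145.5 CPM in the PM mice (0.72 ± 0.15, edgeR adjusted p = 0.132; 30.1% of genes had both PM mice above). In non-cycling T cells it was 58.0 and 103.6 against 105.2 and 133.2 CPM (0.58 ± 0.23, edgeR adjusted p = 0.339; 18.6% of genes above). Neither difference passed the test, although the groups did not overlap. In the immature and mature neutrophil sums and cluster 3 *Myc* was at most 7.55 CPM in any mouse. That value was 1 UMI in the cycling mature neutrophils of PM 2, a sum in which *Myc* was not tested. The log2 fold changes of 1.31 to 1.59 were those of the immature neutrophils of both states and the non-cycling mature neutrophils. Vehicle levels there were low, 0.58 to 1.57 CPM, in sums of 5730345 to 15446085 UMIs.

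The clonal plasma cells are the class nearest to the injected myeloma line: 98.1% of the 161 cells with a light chain V gene were led by *Igkv10-96*, against 5.8% of 224 in the other plasma cell cluster. The mice gave 20, 27, 84 and 31 cycling cells. *Myc* was 172.3 and 134.3 CPM in the vehicle mice and 125.5 and 215.1 CPM in the PM mice, and the PM mice lay on either side of the vehicle mice (0.10 ± 0.22, edgeR adjusted p = 0.972). *Mxd3* was 16.3 and 14.6 against 9.5 and 5.8 CPM (−0.89 ± 0.45, edgeR adjusted p = 0.611) and *Mnt* 27.6 and 29.9 against 23.7 and 25.8 CPM (−0.27 ± 0.30, edgeR adjusted p = 0.917), lower in both PM mice as were 15.2% of genes. *Max* (56.9 and 50.2 against 63.8 and 66.7 CPM) and *Mxd1* (27.6 and 20.2 against 32.5 and 36.7 CPM) were higher in both PM mice, as were 20.7% of genes, and neither was called. The summed mature neutrophil markers were also higher in both PM mice there, at 897 and 1863 against 2801 and 2782 CPM. For the immature neutrophil markers the groups overlapped, at 424 and 765 against 3819 and 346 CPM. The part of either list in the *Max* and *Mxd1* values was not tested. No member was called in these cells by edgeR or DESeq2, and none had an unadjusted p under 0.05. The cluster held 36.3% cells called doublets.

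**Figure D4:**
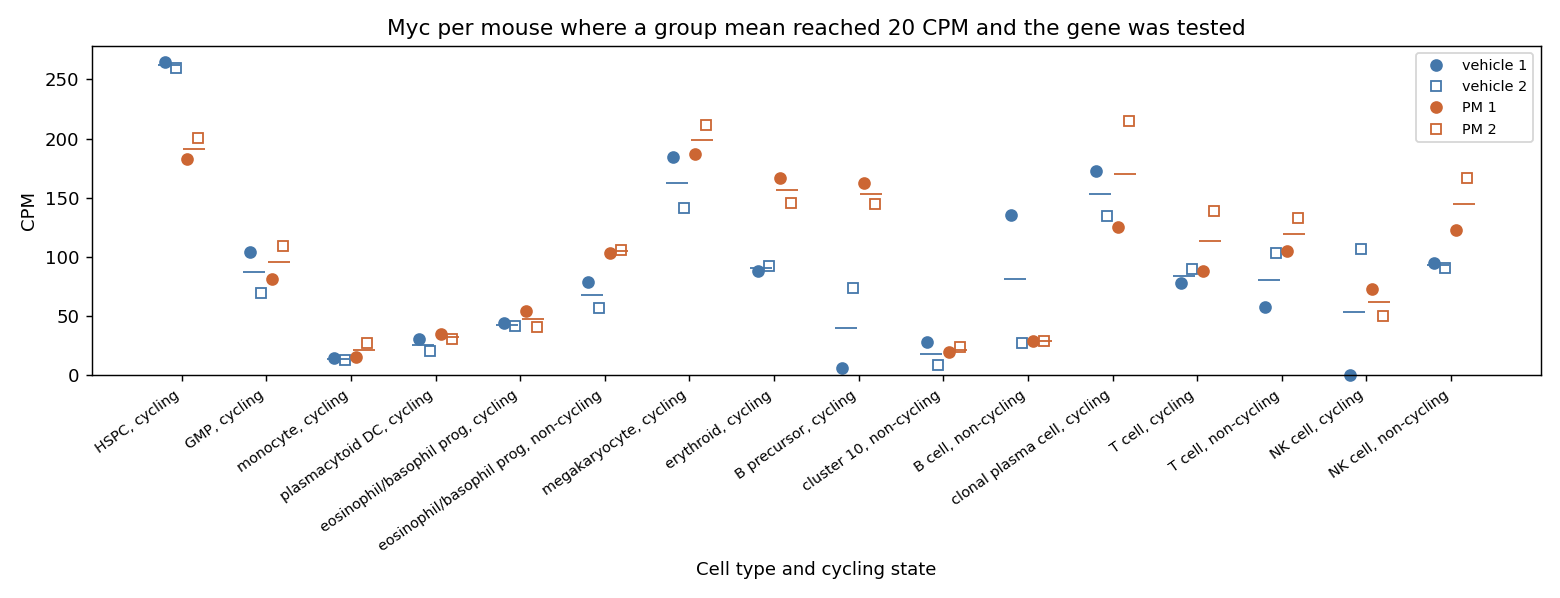
CPM of *Myc* in each mouse in the tested types and states where a group mean reached 20 CPM; points are mice and short lines are group means. The vehicle points lie above the PM points in HSPC and below them in cycling erythroid cells and B precursors, and in the clonal plasma cells the PM points lie on either side of them.

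In cycling B precursors *Myc* had its largest log2 fold change outside the neutrophils, without a call. It was 6.1 and 73.7 CPM in the vehicle mice and 162.3 and 144.5 CPM in the PM mice, and the groups did not overlap (1.44 ± 0.44, edgeR adjusted p = 0.158; 22.3% of genes had both PM mice above). Vehicle 1 gave 22 of these cells and 1 *Myc* UMI, and vehicle 2 gave 111 cells. With the replicate block, which the labels do not define, it was called (edgeR adjusted p = 0.000555). Under the strict cell filter the edgeR adjusted p was 0.174, the highest of the alternatives. Fits without a mouse leave 1 mouse in a group, with no spread of its own, so only their effect is given. The log2 fold change of *Myc* was 1.07 without vehicle 1 and 4.68 without vehicle 2, where the vehicle group is the 1 UMI of vehicle 1. Of the antagonists, 3 were lower in both PM mice, as were 24.1% of genes: *Mxd3* was 72.7 and 59.6 against 29.1 and 56.7 CPM, *Mxd4* 72.7 and 46.4 against 45.8 and 28.4 CPM, and *Mnt* 18.2 and 24.2 against 17.7 and 16.2 CPM, none of them called. The groups overlapped for *Mxd1* (151.4 and 33.3 against 33.3 and 41.9 CPM) and *Mxi1* (48.4 and 62.6 against 45.8 and 52.7 CPM).

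Genes known as targets of Myc were read from 2 lists in the same fits. Of the 68 listed targets tested in cycling B precursors, 23 rose (33.8%), against 0.908% of all genes there, and 65 had a positive log2 fold change. Among the 36 genes of the list for nucleoli and ribosome production 12 rose, with a list median log2 fold change of 0.99 beside 0.01 for all genes. *Mybbp1a*, a nucleolar protein of ribosomal RNA processing, went from 54.5 and 70.7 to 183.1 and 167.5 CPM (1.42 ± 0.25, edgeR adjusted p = 0.00811), and *Gnl3*, the nucleolar GTPase nucleostemin, from 54.5 and 100.9 to 207.1 and 240.4 CPM (1.37 ± 0.25, edgeR adjusted p = 0.00918). *Wdr12*, a pre-ribosome assembly factor, rose by 1.48 ± 0.31. *Pprc1*, placed here by the list alone, rose by 1.76 ± 0.41. The other 8 were *Ncl*, *Npm1*, *Nop56*, *Fbl*, *Nolc1*, *Wdr43*, *Ppan* and *Rrs1*.

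Of the 32 metabolic and growth targets 11 rose, with a median of 0.82. *Ccnd2*, a D-type cyclin of G1, went from 66.6 and 157.5 to 558.8 and 777.9 CPM (2.41 ± 0.29, edgeR adjusted p = 0.00208), and *Srm*, the spermidine synthase, from 30.3 and 63.6 to 144.6 and 152.6 CPM (1.44 ± 0.28, edgeR adjusted p = 0.0119). *Slc19a1*, the reduced folate carrier, rose from 6.1 and 12.1 to 42.7 and 45.9 CPM (edgeR adjusted p = 0.024) and *Shmt1* by 1.48 ± 0.32. *Shmt2* (0.91), *Gart* (0.84) and *Mthfd2* (0.24) of the same list were not called. The others were *Odc1*, *Ldha*, *Nme1*, *Nme2*, *Hspd1*, *Hspe1* and *C1qbp*. Of the 11 tested genes repressed by Myc 0 were called higher and 2 lower, in a class where 0.678% of genes were called lower. Their list median log2 fold change was −0.09 beside 0.01 for all genes, and 4 of them were positive. *Btg2*, an antiproliferative gene, fell from 290.6 and 270.5 to 97.8 and 79.7 CPM (−1.61 ± 0.23, edgeR adjusted p = 0.00208). *Cdkn1b*, the cyclin-dependent kinase inhibitor p27, fell by 0.96 on the log2 scale. Of the 17 tested cofactors 1 was called lower, the kinase gene *Pim1*, by 1.01.

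The count of 23 targets became 21 without vehicle 1, 29 without vehicle 2, 13 without PM 1, 22 without PM 2 and 9 without doublets, and DESeq2 called 11. The stage markers of these cells were not the same in the groups: *Dntt* was 230.1 and 456.2 against 191.5 and 149.9 CPM and *Il7r* 375.4 and 440.1 against 247.6 and 271.5 CPM, while *Vpreb1* (817.3 and 723.7 against 843.9 and 860.3 CPM) and *Igll1* (720.5 and 606.6 against 790.8 and 775.2 CPM) were higher in the PM mice. The cell cycle list was at 16958 and 17725 against 12143 and 15692 CPM. The immature neutrophil markers were at 11836 and 8819 against 8423 and 5329 CPM, and the mature ones at 3003 and 526 against 911 and 362 CPM. Their part in the target values was not tested.

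**Figure D5:**
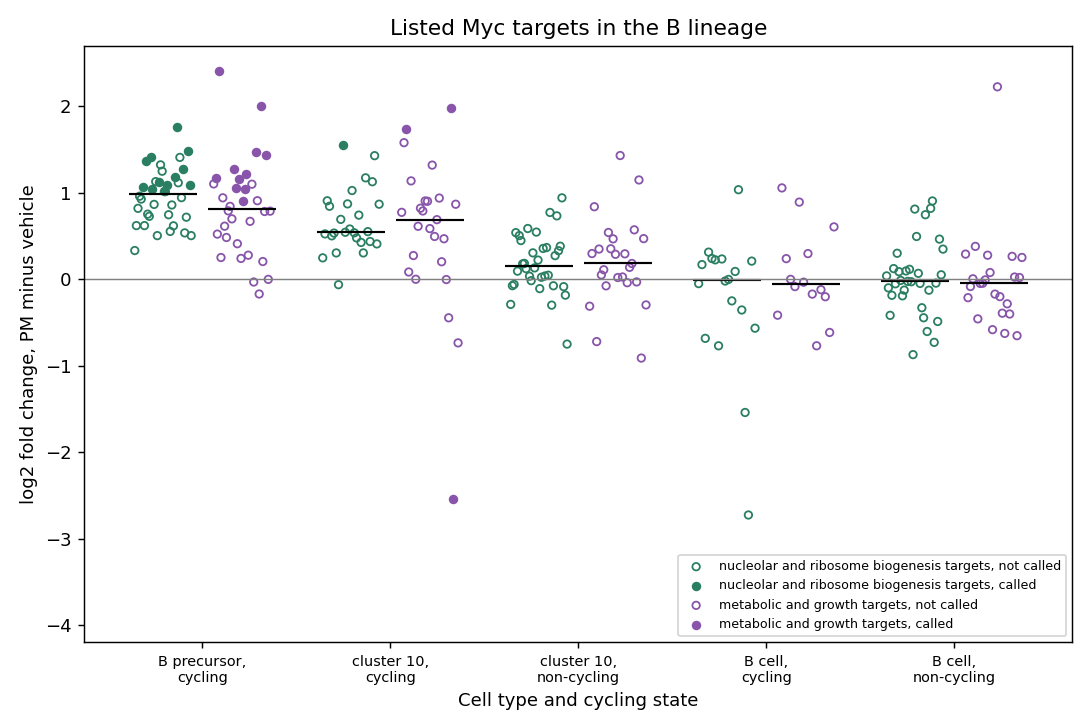
Log2 fold change of PM against vehicle for each tested gene of the 2 Myc target lists in B-lineage cells; filled points are called genes, open points are not called, and black lines are list medians. Nearly all points of the B precursors lie above 0, fewer do in cluster 10, and the B cells are spread about 0.

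In the cycling cells of cluster 10, 46 of 51 tested targets had a positive log2 fold change, 3 were called higher (1.82% of genes were) and 1 lower. Those called higher were *Ccnd2* (245.3 and 271.5 against 841.0 and 863.4 CPM; 1.74 ± 0.23, edgeR adjusted p = 0.00018), *Shmt2* (1.98 ± 0.55) and *Mybbp1a* (1.55 ± 0.42). The summed lists were highest in PM 2. The nucleolar list was at 2923 and 2762 against 3146 and 5702 CPM, and the metabolic list at 3338 and 2795 against 3557 and 5461 CPM. The target called lower was the lactate transporter *Slc16a1* of the metabolic list, which fell by 2.54 on the log2 scale. Outside the 2 target lists *Pim1* fell by 1.36 and *Btg2* by 1.17, where 2.34% of genes were called lower. The stage markers differed there too: *Rag1* was 309.3 and 465.4 against 58.2 and 112.9 CPM and *Ms4a1* (CD20) 629.3 and 1413 against 2942 and 2437 CPM. *Myc* itself was too low to be tested there, at 53.3 and 28.0 against 29.1 and 29.1 CPM. In the B cells 0 of 32 cycling and 0 of 57 non-cycling target tests were called by edgeR or DESeq2, with 6 in each state at an unadjusted p under 0.05. Non-cycling B cells had 135.3 CPM of *Myc* in vehicle 1 and between 27.2 and 28.7 CPM in the other 3 mice. Outside the B lineage the direction of the 2 target lists varied, with no call among them in the classes given next. In cycling erythroid cells 36 of 36 nucleolar and 24 of 32 metabolic targets had a positive log2 fold change. In non-cycling T cells the counts were 35 of 36 and 26 of 31. They were 0 of 36 and 0 of 32 in GMP, 9 of 36 and 4 of 32 in HSPC, and 14 of 36 and 10 of 32 in the clonal plasma cells.

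The remaining pathway genes were counted over the 31 classes, where 1.17% of all tests were called higher and 0.611% lower. Of the other network factors (*Mycl*, *Mlx*, *Mlxip*, *Mlxipl* and *Mga*), 0 of 79 tests were called by edgeR or DESeq2, with 3 at an unadjusted p under 0.05. Of 442 tests of the Sin3, histone deacetylase and NCoR corepressor genes that Mxd and Mnt use, 4 were called lower (against 0.611% of all tests) and 0 higher, namely *Arid4b* in non-cycling erythroid cells (−2.51 ± 0.46), *Ing2* in non-cycling immature (−0.54 ± 0.15) and mature neutrophils (−0.81 ± 0.18), and *Suds3* in non-cycling mature neutrophils (−0.73 ± 0.15).

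The cofactors gave 4 lower calls of 428 and 0 higher, against 0.611% lower and 1.17% higher over all tests. They were *Pim1* in cycling B precursors, cycling cluster 10 and non-cycling erythroid cells (−2.56 ± 0.31) and *Wdr5* in cluster 3 (−0.77 ± 0.18). The protein turnover genes gave 1 lower call of 376, *Cip2a* in cluster 13 (−0.68 ± 0.14). The genes repressed by Myc gave 11 higher and 7 lower calls of 318, against the same 1.17% and 0.611% of all tests. The metabolic targets gave 16 higher and 10 lower of 731, of which 11 and 0 were in cycling B precursors. *Btg2*, which fell in B precursors and in both states of cluster 10, rose in cluster 13 (0.69 ± 0.15), cluster 3 (0.59 ± 0.15) and both states of the immature neutrophils (0.55 ± 0.12 and 0.58 ± 0.13). *Ndrg1*, another gene repressed by Myc, rose in non-cycling immature (0.54 ± 0.12) and in both states of the mature neutrophils (1.36 ± 0.38 in cycling and 0.69 ± 0.15 in non-cycling cells). *Gadd45b*, of the same list, fell in the cycling ones (−1.40 ± 0.37). *Txnip* rose in non-cycling cluster 10 (0.64 ± 0.18). Of the metabolic targets outside the B lineage, *Hk2* rose in non-cycling mature neutrophils (0.80 ± 0.15) and *Ccnd2* in non-cycling pDC (1.16 ± 0.24). *Nme1* fell in non-cycling monocytes (−0.76 ± 0.14), *Nme2* in macrophages (−1.39 ± 0.32) and *Eif4a1* in cycling mature neutrophils (−1.76 ± 0.42). In the thin class of non-cycling erythroid cells *Tfrc*, the transferrin receptor, fell by 3.64, *Slc16a1* by 4.76, *Slc3a2* by 3.29 and *Odc1* by 3.23 on the log2 scale, and of the repressed genes *Cdkn1b* fell by 1.90 and *Gadd45a* by 1.66.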

How the data were processed

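Bone marrow of 2 vehicle and 2 PM mice was profiled with 10x Chromium 3' libraries. The deposited matrices hold raw UMI counts per gene and cell that the authors made with Cell Ranger 6.0.1. The study's methods name GRCm38 and the submitters' processing notes GRCm39; 99.6% of the 32285 gene IDs are in GENCODE M21 (GRCm38). Libraries held 69828595 to 109447030 UMIs.

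Barcodes needed 300 or more genes, and no more than 20% mitochondrial UMIs, and were clustered in scanpy 1.11.5 (2500 variable genes, 30 components, 15 neighbours, Leiden resolution 1). Clusters were named from fixed markers where at least 3 were raised and the best list led the next by 0.4, and otherwise kept their number. Cells with at least 10 cell cycle UMIs per 10000, and at least 3 in all, were called cycling. The top-scoring 5.8 to 10.3% of barcodes per library were called doublets, kept in the sums and left out in an alternative.

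Summed counts were tested in edgeR 4.0.16 (quasi-likelihood, TMM, filterByExpr), with Benjamini-Hochberg adjustment over all genes of a sum, and DESeq2 1.42.0 was an alternative. The difference between states was tested with the mouse as a block. The scripts were tested on simulated data. Members and gene lists were chosen with earlier results of these data known. Pathway genes are named where they were called, reached 20 CPM on average and were among the 4 largest changes of their list; further called genes, stage markers and neutrophil markers were named after their values were seen. A gene that the likeness rule named is not reported here.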

Additional observations from a re-analysis of the deposited data

Results flagged for a closer look

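The response of *Mxd1* to PM in plasmacytoid dendritic cells differed between cycling and non-cycling cells by 1.44 ± 0.31 on the log2 scale (edgeR interaction test, adjusted p = 0.0292). *Mxd1* was higher in both PM mice in the cycling cells, and the groups overlapped in the non-cycling cells. The difference was 0.79 without cells called doublets, an alternative chosen after seeing the data, and 0.90 without vehicle 1, and it was not called in either. The mature neutrophil markers in the cycling cells were also higher in both PM mice, while the groups overlapped for the immature neutrophil markers. The part of either list in the difference was not tested.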

How the results depend on the processing

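Of 368 alternative values for the 28 member changes at an unadjusted p under 0.05 and the difference in pDC, 307 kept their direction and side of the threshold, 44 gained a call, 15 lost one and 2 reversed, *Mxd1* in non-cycling cluster 10 without doublets (0.055) and in cycling pDC with the states together (−0.10). The cause of the reversals was not tested. Most of the 307 were results without a call that stayed so. Of the called results, *Mxd4* in cluster 3 kept its call in 9 of 13 alternatives. *Mxi1* in non-cycling erythroid cells kept it in 4 of 10 and the difference in pDC in 3 of 8. Member calls, 1 higher and 1 lower, became 9 and 5 with no filter on low counts, 0 and 1 with DESeq2, 1 and 2 with RLE size factors, 2 and 0 at 5 cell cycle UMIs per 10000, 2 and 2 with the states together, 0 and 0 without doublets and 1 and 0 with the strict cell filter (500 genes, 10% mitochondrial UMIs). Leaving out each mouse gave 2 to 8 calls higher and 1 to 9 lower, the most without vehicle 2. Member calls for the difference between states, 1 in all, became 0 to 2 without single mice, 0 without doublets and 0 at 5 or 20 UMIs. Pathway calls, 40 higher and 26 lower, became 14 and 15 with DESeq2, and 29 to 66 and 16 to 66 without single mice, with 66 and 66 without vehicle 2. The 23 targets called higher in cycling B precursors became 11 with DESeq2, 9 without doublets and 13 to 29 without single mice, settings partly chosen after seeing the data. *Mxi1* in non-cycling erythroid cells had too few cells or counts for a value at 5 UMIs, without doublets and with the strict filter. Fits that leave out a mouse assume that the lone mouse varies like the other group.

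The labels' replicate numbers do not tie mice to each other, and deviations of same-numbered mice correlated at −0.14 to 0.26 (median −0.03) over the 31 sums. With the replicate block member calls were 3 higher and 1 lower, and 35 targets were called higher in B precursors. Depth limits the thinnest sums, such as the 14 non-cycling erythroid cells of vehicle 2, to few tested genes (1500).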
